A study of Homo sapiens with 32 samples.

Results

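The genes described here are 30 transcriptional targets of p53, followed in 2 human lung cancer lines under an inhibitor of gamma-secretase. A member was measured through the probe sets whose only gene symbol is its own, and of several probe sets the one with the highest mean over all 32 arrays was used. By this rule 27 of the 30 members were measured, out of 19775 genes in all. The only probe set of BBC3 carries 3 symbols and was not used, and BTG2 and FDXR were not analysed here. No member was removed for a low level, and 24 of the 27 lay above the median level of all genes.

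The groups were A549 cells and H460a cells, each given vehicle or 2 µM RO4929097 (GSI below) for 6 or 24 h, with 4 arrays in each of the 8 groups. Every group was plated at 35% confluency and rested overnight before dosing, so the 24 h groups were also in culture for longer. No group is labelled with a DNA-damaging or p53-activating agent, and the vehicle is not named. Each line is an established tumour line, so a difference between them concerns these 2 lines only. Nothing in the labels says whether the arrays of a group stem from different cultures, so the p-values rest on a spread between arrays that may be technical. In RNA from whole cultures, fewer cells of a type and less RNA per cell cannot be told apart.

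p53 is a transcription factor that is kept at a low level by MDM2 and that accumulates after DNA damage and other stresses. It switches on genes that halt the cell cycle (CDKN1A, which encodes p21), genes that promote cell death (BAX, FAS, TNFRSF10B), DNA repair genes (DDB2, XPC, POLH) and its own inhibitors (MDM2, PPM1D), and several of these genes also answer to other factors. Gamma-secretase is the protease that releases the active domain of Notch, and HES1 is a direct target of Notch.

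Some properties of the arrays bear on the values. Mean intensity was 468 to 496 in the 4 A549 vehicle arrays of 6 h and 496 and 531 in A549 GSI 6 h arrays 1 and 2. It was 583 to 589 in A549 GSI 6 h arrays 3 and 4 and 570 to 613 on the other 24 arrays. H460a vehicle 6 h array 3 stood apart by its beta-actin signal, which was higher by 2.19 (log2) at the 3′ than at the 5′ end, against 0.14 to 0.42 on the other 31 arrays. This array, A549 GSI 6 h arrays 3 and 4 and H460a GSI 24 h array 3 are the 4 arrays that stand apart in what follows. In mean intensity the 2 A549 arrays differed from arrays 1 and 2 of their own group and not from the other 24 arrays. H460a GSI 24 h array 3 was at 570, beside 595 to 613 in the rest of its group. The low-intensity A549 arrays of 6 h are not among the 4 and stayed in when these were removed. The epithelial keratins KRT8 and KRT18 were high in both lines (means over each line's arrays of 13.59 and 14.70 in A549, 12.93 and 13.85 in H460a). A further keratin, KRT19, was high in H460a alone, at 13.66, and lay at 6.89 in A549. Of 4 leukocyte markers PTPRC lay at 5.27 in A549 and 5.20 in H460a, below every array's median of 6.56 to 6.67, and CD3E (6.89 and 6.83), CD79A (8.39 and 8.29) and CD14 (8.80 and 8.63) above those medians at like levels in both lines. EPCAM lay below those medians too, at 5.60 and 4.76, and CDH1, which encodes E-cadherin, at 10.28 in A549 and 4.57 in H460a. HES1 fell with the inhibitor in A549, by 1.63 ± 0.13 at 6 h and 2.18 ± 0.13 at 24 h (log2 ± SE; limma adjusted p = 8.67e-10 and 1.29e-13). In H460a HES1 was at 6.69 and 6.44 in vehicle and its differences of -0.35 and -0.29 did not pass the test.

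Promoter sequence was available for 21 of the 27 measured members, as the 250 bases before the start site in RefSeq (GRCh38.p14). A p53 half-site, searched on both strands, lay at 1 or more listed start sites in 4 of the 21 members (PLK2, AEN, FAS and SESN1) and, counted in the same way, in 6.8% of all 27305 genes of the table (5.57% of its 35116 promoters). The RBPJ-type motif GTGGGAA lay in 1 of 21, that of POLH, against 6.69% of all genes, and the FOXO-type motif GTAAACA in 1 of 21, that of PERP, against 3.66%. The matches of the 3 motifs lay in different genes and so did not overlap. A match is a description of the letters and not a measured site, and p53 also binds in introns and farther upstream. The promoters below belong to CCNG2, the member called for the inhibitor in H460a and in the average and the one with the largest rise with time, and to FAS and AEN, which are among the largest falls with time in H460a and carry a half-site, shown in capitals. In the CCNG2 window none of the 3 motifs was found. The FAS match begins 122 bases before the start site, in 1 of the 3 start sites listed for the gene, and the AEN match 34 bases before it.
CCNG2 promoter, chr4:77156957-77157206, plus strand: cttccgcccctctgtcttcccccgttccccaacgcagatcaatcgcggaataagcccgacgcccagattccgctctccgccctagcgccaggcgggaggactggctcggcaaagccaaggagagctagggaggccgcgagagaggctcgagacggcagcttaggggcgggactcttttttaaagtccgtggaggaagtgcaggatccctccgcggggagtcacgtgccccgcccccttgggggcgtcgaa
FAS promoter, chr10:88991181-88991430, plus strand: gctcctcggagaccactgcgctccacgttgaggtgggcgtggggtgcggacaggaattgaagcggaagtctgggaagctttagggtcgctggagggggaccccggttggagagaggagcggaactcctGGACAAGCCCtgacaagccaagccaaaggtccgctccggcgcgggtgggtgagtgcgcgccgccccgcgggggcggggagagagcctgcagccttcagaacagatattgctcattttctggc
AEN promoter, chr15:88621090-88621339, plus strand: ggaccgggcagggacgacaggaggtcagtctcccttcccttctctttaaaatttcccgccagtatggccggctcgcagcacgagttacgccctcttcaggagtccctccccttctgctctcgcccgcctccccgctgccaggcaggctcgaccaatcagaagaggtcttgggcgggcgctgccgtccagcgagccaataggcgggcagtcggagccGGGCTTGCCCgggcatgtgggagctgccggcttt

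The first comparison was of inhibitor with vehicle in A549 at 6 h. As deposited, 6 of the 27 members rose and 0 fell, against 13.1% of all genes called (11.6% higher and 1.51% lower). The risen genes were MDM2, the ubiquitin ligase that degrades p53, PERP, a membrane protein of cell death and cell adhesion, the cyclins CCNG1 and CCNG2, the kinase PLK2 and the TRAIL receptor TNFRSF10B. The 6 are 22.2% of the measured members, and the median difference of the 27 was 0.15, beside 0.021 for all genes.

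MDM2 read 9.10, 8.72, 8.79 and 8.80 (log2 intensity) in vehicle arrays 1 to 4 and 8.93, 9.13, 9.44 and 9.35 with the inhibitor. Vehicle array 1 lay above inhibitor array 1, so the groups overlapped, with a difference of 0.36 ± 0.11 (SE; limma adjusted p = 0.0256). PERP read 13.30, 13.26, 13.18 and 13.23 in vehicle and 13.27, 13.48, 13.84 and 13.80 with the inhibitor, a difference of 0.35 ± 0.083 (limma adjusted p = 0.00797). Inhibitor array 1 lay within the vehicle range for PERP, and arrays 3 and 4 were the highest. CCNG1, a cyclin that acts with a phosphatase on MDM2, read 11.51, 11.45, 11.33 and 11.51 in vehicle and 11.59, 11.54, 11.96 and 11.98 with the inhibitor. The CCNG1 groups did not overlap, and inhibitor arrays 1 and 2 lay just above the highest vehicle array (difference 0.32 ± 0.083, limma adjusted p = 0.0133).

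CCNG2, an unconventional cyclin of resting cells, read 9.37, 9.26, 9.07 and 9.32 in vehicle and 9.53, 9.42, 9.77 and 9.59 with the inhibitor, without overlap (difference 0.32 ± 0.092, limma adjusted p = 0.0203). PLK2, a polo-like kinase of the cell cycle and of stress, read 9.91, 9.96, 9.75 and 9.86 in vehicle and 10.10, 10.08, 10.30 and 10.29 with the inhibitor. All 4 inhibitor arrays lay above all 4 vehicle arrays for PLK2 (difference 0.32 ± 0.08, limma adjusted p = 0.0107). TNFRSF10B, a death receptor for TRAIL, read 10.65, 10.61, 10.51 and 10.44 in vehicle and 10.65, 10.81, 10.84 and 10.84 with the inhibitor, where array 1 equalled the highest vehicle array (difference 0.23 ± 0.068, limma adjusted p = 0.0233).

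The 6 calls in A549 at 6 h depended on the setting. With quantile normalization over all arrays, which called 2.82% of all genes, none of the 6 passed, their differences were 0.058 (PERP) to 0.26 (MDM2), and CDKN1A was called lower, at -0.23 ± 0.056 (limma adjusted p = 0.0231) beside -0.05 as deposited. Without the 4 arrays that stand apart 0.162% of all genes and none of the 27 members passed, and the 6 differences were 0.12 (CCNG1) to 0.22 (CCNG2 and PLK2). This removal left inhibitor arrays 1 and 2 alone in their group, so the test also had less power, and the part of that in the lost calls was not tested. No member was called without inhibitor array 3 or without inhibitor array 4, and 1 without vehicle array 3. MDM2 took the opposite sign, -0.10, when its probe set of highest SD was used. With median centring, which called 12.8%, all 6 kept their call. The part of array intensity in these differences was not tested.

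**Figure D1:**
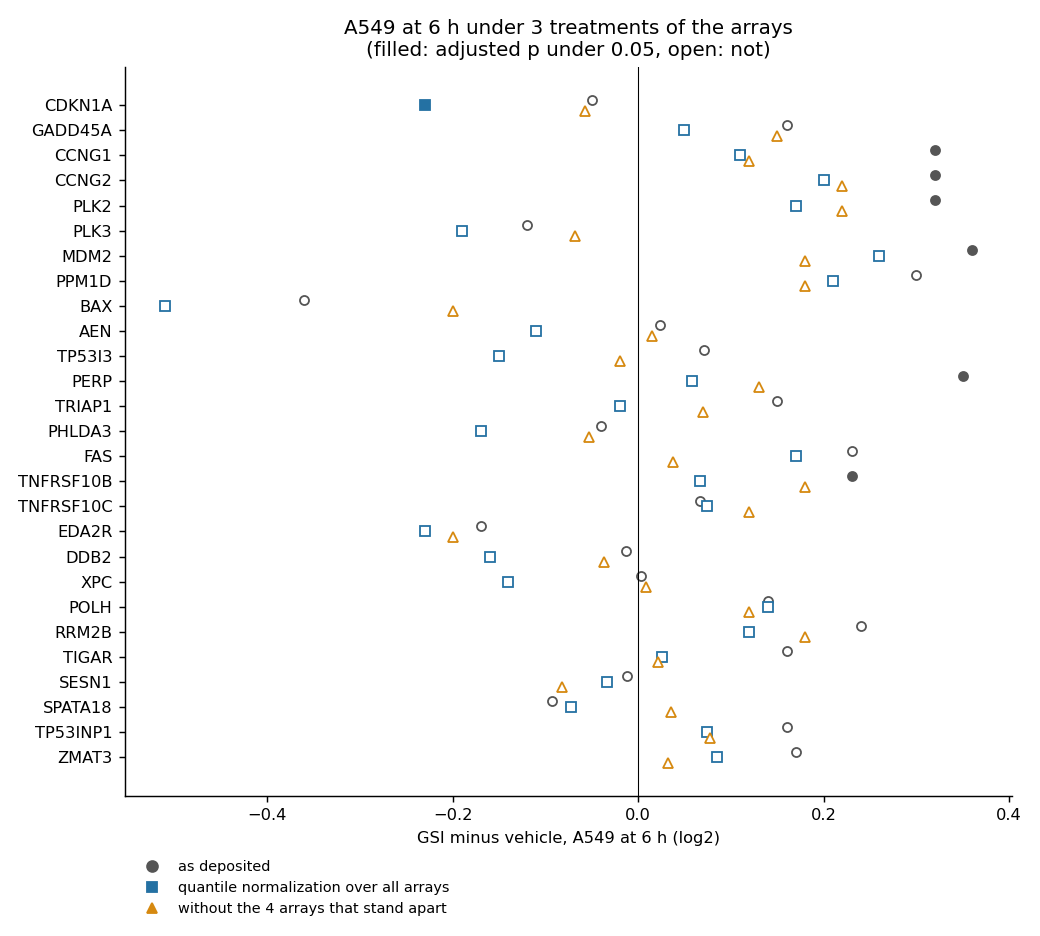
Inhibitor minus vehicle in A549 at 6 h for the 27 members (horizontal axis, log2 difference), as deposited (circles), after quantile normalization over all arrays (squares) and without the 4 arrays that stand apart (triangles); filled symbols passed the test. The 6 filled circles have no filled square or triangle beside them, and the only filled square is CDKN1A at -0.23.

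Among the members that did not pass in A549 at 6 h, PPM1D, the phosphatase that inactivates p53, differed by 0.30 ± 0.11 (limma adjusted p = 0.0757) and RRM2B, a ribonucleotide reductase subunit that supplies nucleotides for repair, by 0.24 ± 0.1. CDKN1A read 10.70, 10.89, 10.72 and 10.76 in vehicle and 10.65, 10.77, 10.70 and 10.75 with the inhibitor. The CDKN1A groups overlapped, and the 95% interval of the difference was -0.16 to 0.062. BAX, the pore-forming death effector, differed by -0.36 ± 0.33 with the widest error of the members, since its arrays spread over 8.56 to 9.43 in the inhibitor group alone. None of the DNA repair members (DDB2, XPC, POLH, RRM2B) and none of the metabolic and autophagy members (TIGAR, SESN1, SPATA18, TP53INP1) passed.

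In H460a at 6 h CCNG2 alone of the 27 members passed the test, and it rose 1.43-fold. It read 8.10, 7.97, 8.22 and 7.99 in vehicle and 8.54, 8.42, 8.67 and 8.73 with the inhibitor, so that the lowest inhibitor array lay above the highest vehicle array. The difference was 0.52 ± 0.092 (95% interval 0.33 to 0.71; limma adjusted p = 0.00674), in a comparison that called 0.0961% of all genes. Under median centring, both quantile normalizations and the removal of the 4 arrays that stand apart it ranged from 0.47 to 0.57 and passed each time. The call was lost without inhibitor array 4 (0.47, limma adjusted p = 0.0608), in a fit of the 8 arrays of the comparison alone (0.52, limma adjusted p = 0.275) and in a fit of H460a alone (0.52, limma adjusted p = 0.134). Of its 4 other probe sets 3 differed upward, by 0.39, 0.12 and 0.34, and the dimmest, at a mean level of 6.74, by -0.19, and the mean of all 5 gave 0.24 (limma adjusted p = 0.061).

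The other members of H460a at 6 h gave intervals that included 0 except for MDM2 and PHLDA3. MDM2 read 9.87, 9.94, 10.04 and 9.74 in vehicle and 10.23, 10.13, 10.09 and 10.12 with the inhibitor, again with every inhibitor array above every vehicle array. Its difference of 0.25 ± 0.11 (95% interval 0.026 to 0.47) did not pass after adjustment (limma adjusted p = 0.386). PHLDA3, an inhibitor of AKT, differed by 0.24 ± 0.11 and CDKN1A by 0.076 ± 0.055, with adjusted p of 0.381 and 0.639 from limma. BAX had the largest difference of all, 0.61 ± 0.33, with an interval of -0.066 to 1.29. Vehicle array 3, the array with the high 3′ actin signal, was the lowest of its group for both BAX and PHLDA3. BAX read 8.10 on it and 8.99 to 9.46 on the other vehicle arrays, and PHLDA3 9.00 beside 9.37 to 9.57.

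At 24 h no member passed in either line. In A549 2.21% of all genes were called, 0 of 27 members passed and 0 had an unadjusted p under 0.05 in limma's test. In H460a 0.00506% of all genes (1 gene) were called, 0 of 27 members passed, and 2, EDA2R and AEN, had an unadjusted p under 0.05 in limma's test. The genes called in A549 at 6 h had differences near 0 at 24 h: -0.025 for MDM2 (95% interval -0.25 to 0.20), -0.037 for PERP (-0.21 to 0.13) and -0.015 for CCNG2 (-0.20 to 0.17). CDKN1A read 10.81, 10.78, 10.84 and 10.79 in A549 vehicle at 24 h and 10.82, 10.85, 10.94 and 10.92 with the inhibitor, a difference of 0.079 with an interval of -0.033 to 0.19. In H460a CCNG2 read 9.57, 9.67, 9.77 and 9.67 in vehicle and 9.83, 9.84, 9.37 and 9.49 with the inhibitor at 24 h, where arrays 1 and 2 lay above and arrays 3 and 4 below the vehicle range (difference -0.04, interval -0.23 to 0.15). Apart from BAX, the intervals at 24 h lay between -0.38 (PLK3) and 0.38 (SPATA18) in A549 and between -0.45 (POLH) and 0.51 (EDA2R) in H460a.

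**Figure D2:**
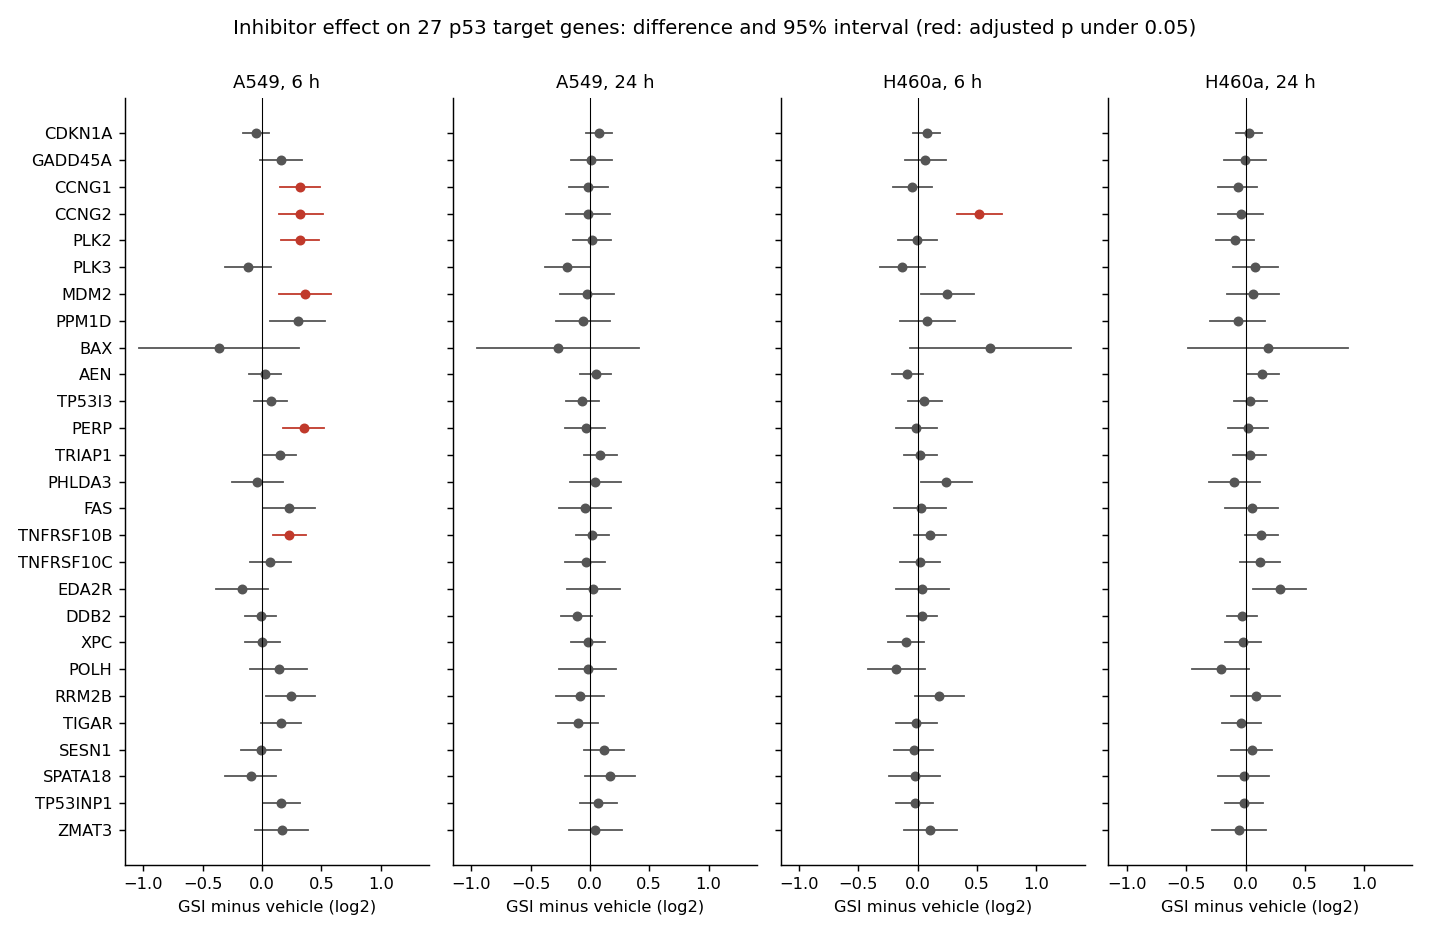
Inhibitor minus vehicle (horizontal axis, log2) for the 27 members in A549 and H460a at 6 and 24 h, as deposited, with points for the difference, lines for the 95% interval and red for members that passed the test. At 6 h 6 members are red in A549 and CCNG2 alone in H460a, and at 24 h none is red.

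Averaged over both lines and times, CCNG2 was the 1 member that passed, against 2.18% of all genes. Its average difference was 0.20 ± 0.046 (limma adjusted p = 0.0142), with all 4 inhibitor arrays above all 4 vehicle arrays in each line at 6 h and differences of -0.015 and -0.04 in A549 and H460a at 24 h. TNFRSF10B averaged 0.12 ± 0.034 (limma adjusted p = 0.0511) and MDM2 0.16 ± 0.054 (limma adjusted p = 0.11). Without the 4 arrays that stand apart CCNG2, TNFRSF10B and MDM2 passed, which made 3 members against 3.25% of all genes.

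Whether the inhibitor difference itself depended on line or time was tested as an interaction. Between lines, 0 of 27 members passed at 6 h (0.121% of all genes; 4 members with an unadjusted p under 0.05 in limma's test) and 0 at 24 h (0.637%; 0 members). Between times, 0 passed in A549 (3.71%; 9 members) and 0 in H460a (0.0101%; 3 members). The nearest was PERP, whose difference in A549 was lower by 0.39 at 24 h than at 6 h (limma adjusted p = 0.054), and the difference of CCNG2 in H460a was lower by 0.56 (limma adjusted p = 0.182). With quantile normalization, which called 2.16%, CDKN1A passed in A549, at 0.30 for 24 h minus 6 h. The members called at 6 h and not at 24 h were not shown to differ between the times.

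Other genes of the pathway were read from 3 further lists. Among 26 regulators of p53, 5 rose in A549 at 6 h as deposited (19.2% of the list, against 11.6% of all genes called higher) and 0 passed in A549 at 24 h or in H460a at either time. MDM4, the partner of MDM2 that masks the activation domain of p53, differed by 0.52 in A549 at 6 h, the acetyltransferase EP300 by 0.38, the kinase HIPK2 by 0.27 and BRD7, a p53 cofactor, by 0.25 (limma adjusted p = 0.0122, 0.0252, 0.0258 and 0.0196). MDM4 differed by 0.051 in A549 at 24 h and by -0.16 and -0.027 in H460a at 6 and 24 h. None of the regulators passed after quantile normalization over all arrays or without the 4 arrays that stand apart. CDKN2A, whose ARF product blocks MDM2, passed in no inhibitor comparison, with differences of -0.10 to 0.064. Its group means lay between 7.44 and 7.78, and whether this signal is the gene's transcript was not tested.

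Of 49 other p53 targets, 8 rose in A549 at 6 h, which is 16.3% beside the same 11.6% of all genes, among them PTP4A1 (0.44), GDF15 (0.37), PMAIP1 (0.31) and RPS27L (0.31). GDF15, a stress-induced secreted factor, also rose in H460a at 6 h by 0.46 ± 0.094 (limma adjusted p = 0.0338, and 0.0898 after quantile normalization over all arrays). Over all 4 comparisons GDF15 averaged 0.27 (limma adjusted p = 6.60e-04) and passed after quantile normalization and without the 4 arrays too. In A549 at 24 h TP53I11 rose by 0.53 and NINJ1, a protein of plasma membrane rupture, by 0.41, while TNFAIP8, an apoptosis inhibitor, fell by 0.52 (limma adjusted p = 0.0207, 4.43e-05 and 8.78e-04). These 3 passed under quantile normalization as well.

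Genes that p21 and the DREAM repressor complex are known to lower, many of them needed for cell division, formed the last list. Of 25 such genes 7 rose in A549 at 6 h (28%, against 11.6% of all genes), led by ECT2 (0.42) and the topoisomerase TOP2A (0.35), and none of the 25 passed there after quantile normalization or without the 4 arrays. In A549 at 24 h KIF23, a kinesin of cell division, fell by 0.34 (limma adjusted p = 0.032) and the median of the list was -0.089, beside 0.007 for all genes. In H460a 0 of 25 passed at either time.

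Culture time was read in H460a first, where both times had arrays of similar mean intensity. In vehicle, 4 members rose and 8 fell from 6 to 24 h, against 30.4% of all genes called (15.1% higher and 15.3% lower). Of the members 44.4% were called. The risen genes were CCNG2, TP53INP1, CCNG1 and ZMAT3. The fallen genes were FAS, TIGAR, AEN, TRIAP1, PPM1D, XPC, DDB2 and CDKN1A.

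CCNG2 read 8.10, 7.97, 8.22 and 7.99 at 6 h and 9.57, 9.67, 9.77 and 9.67 at 24 h, a 3.03-fold rise with no overlap (difference 1.60 ± 0.092, limma adjusted p = 4.82e-15). TP53INP1, which promotes autophagy and p53 phosphorylation, read 6.61, 6.72, 6.84 and 6.65 and then 7.52, 7.35, 7.36 and 7.28, also with no overlap (difference 0.67 ± 0.077, limma adjusted p = 1.69e-08). CCNG1 read 12.55, 12.57, 12.90 and 12.62 at 6 h and 13.16, 13.16, 13.18 and 13.28 at 24 h, where array 3 of 6 h, the array with the unequal actin ends, was the highest of its group. Its difference was 0.53 ± 0.083, and that of ZMAT3, an RNA-binding regulator of splicing, 0.34 ± 0.11 (limma adjusted p = 3.58e-06 and 0.0172). ZMAT3 read 8.64, 8.74, 8.72 and 8.40 at 6 h and 9.14, 8.98, 8.92 and 8.82 at 24 h, all above the earlier arrays.

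FAS, the CD95 death receptor whose promoter half-site is shown above, read 8.88, 8.95, 9.23 and 8.82 at 6 h and 8.25, 8.23, 8.03 and 8.10 at 24 h. Every late array lay below every early one, and FAS fell by 0.82 ± 0.11 (limma adjusted p = 2.13e-07). TIGAR, a phosphatase that slows glycolysis, read 9.81, 9.91, 9.99 and 9.89 and then 9.13, 9.16, 9.09 and 9.27 (fell by 0.74 ± 0.083, limma adjusted p = 1.06e-08). AEN, a nuclease of apoptosis that also carries a half-site, read 9.79, 9.76, 9.94 and 9.80 and then 9.16, 8.97, 9.14 and 9.19. The AEN groups did not overlap either, with a fall by 0.71 ± 0.065 (limma adjusted p = 2.00e-10). The remaining members with a half-site, PLK2 (0.20) and SESN1 (-0.20), were not called here, and a link of the half-site to time was not tested. TRIAP1, a small inhibitor of apoptosis, read 11.30, 11.21, 11.20 and 11.28 and then 10.59, 10.63, 10.90 and 10.63 (fell by 0.56 ± 0.069), and PPM1D 9.24, 9.15, 9.40 and 9.04 and then 8.72, 8.68, 8.91 and 8.61 (fell by 0.47 ± 0.11). Neither pair of groups overlapped, and the limma adjusted p were 5.53e-08 and 0.00114.

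The 3 smallest falls, XPC (-0.22), DDB2 (-0.18) and CDKN1A (-0.16), lost their call under at least 1 of median centring, the 2 quantile normalizations and the removal of the 4 arrays, and the other 9 kept theirs under all of these. MDM2 in H460a vehicle read 9.87, 9.94, 10.04 and 9.74 at 6 h and 9.96, 10.02, 9.74 and 9.88 at 24 h, with overlapping groups (difference 0.0027, 95% interval -0.22 to 0.22). By role, 2 of 6 cell cycle members rose and 1 fell, 1 of 4 members of metabolism and autophagy rose and 1 fell, and ZMAT3, the RNA-binding member, rose. In the other roles the calls were falls, of 1 of 2 feedback members, 1 of 4 receptors and 2 of 4 DNA repair members. Falls were also called for 2 of 6 members grouped under cell death, AEN and TRIAP1, of which TRIAP1 inhibits apoptosis. With so few members in a role these counts cannot be read against the 15.1% and 15.3% of all genes.

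The inhibitor arrays of H460a gave a separate set of arrays for the same interval, in a comparison that called 32.9% of all genes. In them 14 members were called, 5 higher and 9 lower, and 10 were called in the same direction in both sets, which is 83.3% of the vehicle calls and 71.4% of the inhibitor calls. All 12 vehicle calls had the same sign there. The sharing of calls between the sets was not counted over all genes, so it cannot be read as particular to the members. In the inhibitor arrays CCNG2 rose by 1.04 ± 0.092 and TP53INP1 by 0.68 ± 0.077, and FAS, TIGAR, AEN and TRIAP1 fell by 0.79, 0.76, 0.48 and 0.55. FAS read 8.99, 8.98, 8.92 and 9.08 at 6 h and 8.46, 8.24, 7.79 and 8.31 at 24 h with the inhibitor, again without overlap.

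**Figure D3:**
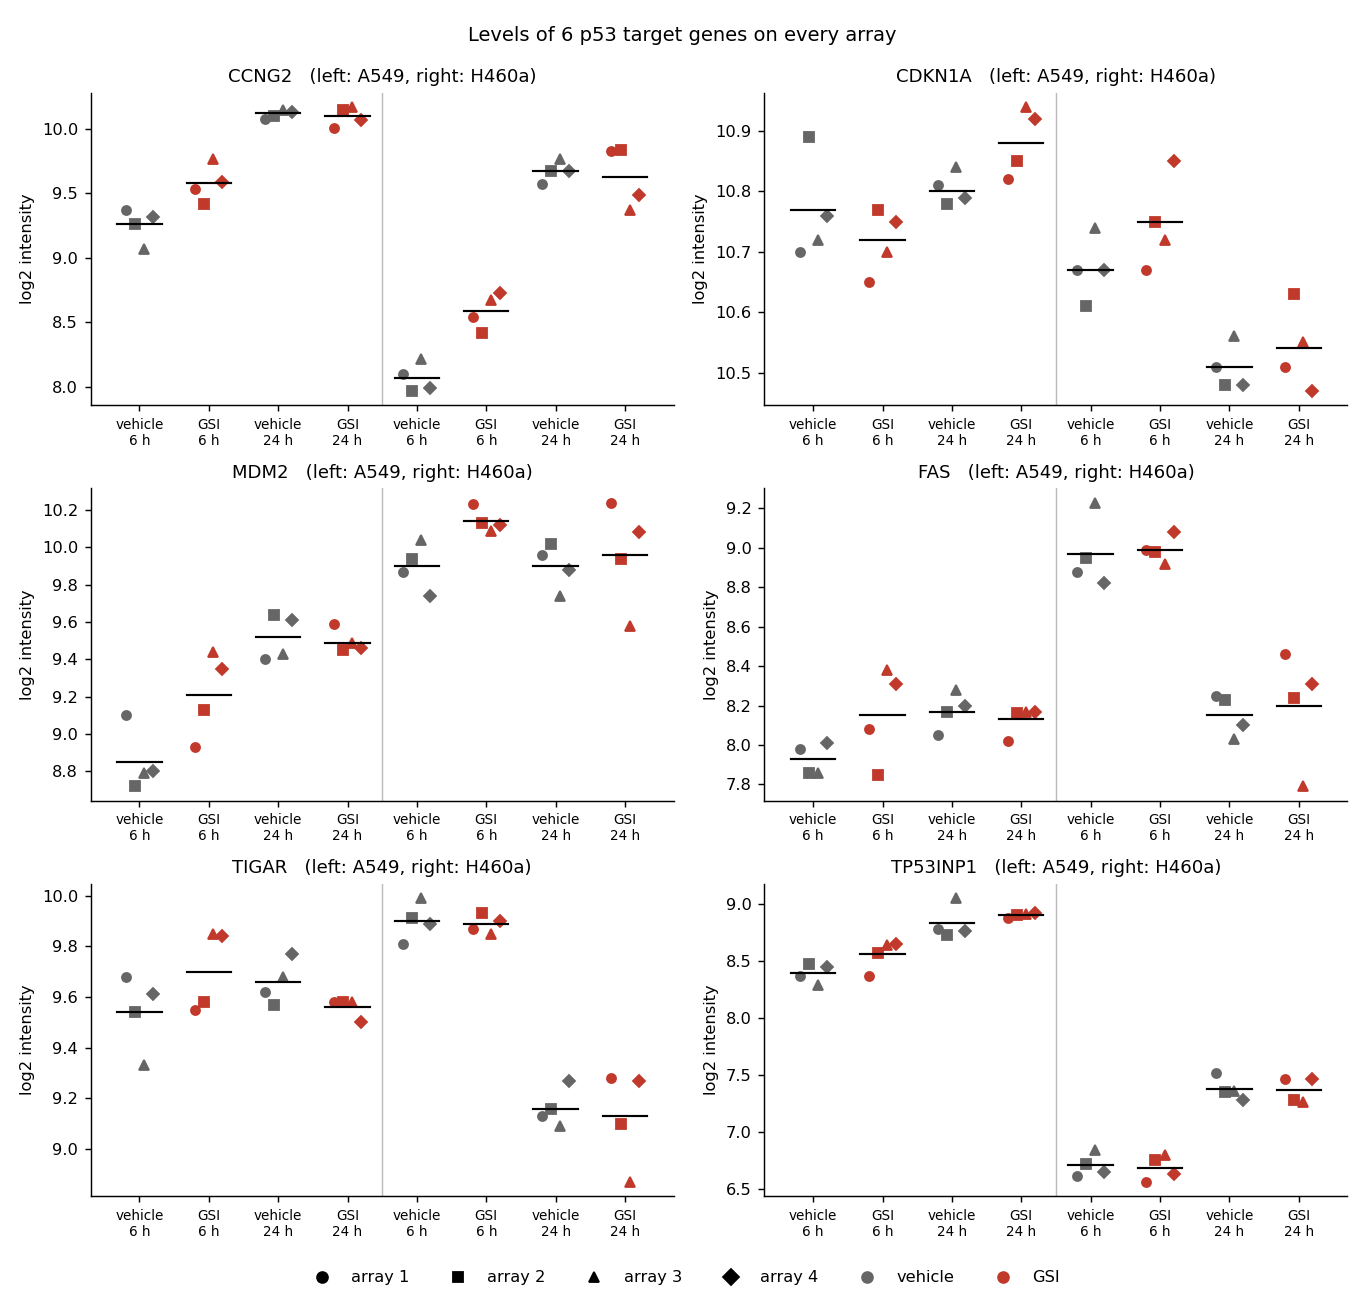
Log2 intensity of CCNG2, CDKN1A, MDM2, FAS, TIGAR and TP53INP1 on all 32 arrays by group, with marker shapes for array numbers, grey for vehicle, red for GSI and bars for group means; the vertical scales differ between panels and do not start at 0. CCNG2 rises with time in all 4 pairs of groups, and FAS and TIGAR fall with time in H460a with and without the inhibitor.

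In A549 vehicle more members were called with time, 13 higher and 3 lower, against 44.2% of all genes (29.2% higher and 15% lower). All 4 arrays of the earlier group are the low-intensity ones given above, so in vehicle the time and the intensity cannot be told apart. CCNG2 read 9.37, 9.26, 9.07 and 9.32 at 6 h and 10.08, 10.10, 10.15 and 10.13 at 24 h (difference 0.86 ± 0.092, limma adjusted p = 1.10e-08). PERP read 13.30, 13.26, 13.18 and 13.23 and then 13.92, 14.04, 13.97 and 13.99 (0.74 ± 0.083), and PLK2 9.91, 9.96, 9.75 and 9.86 and then 10.53, 10.66, 10.60 and 10.62 (0.73 ± 0.08). For each of these genes every late array lay above every early one. MDM2 read 9.10, 8.72, 8.79 and 8.80 and then 9.40, 9.64, 9.43 and 9.61, and RRM2B 9.39, 9.12, 9.10 and 9.20 and then 9.78, 9.64, 9.91 and 9.90, both without overlap. The differences were 0.67 ± 0.11 and 0.60 ± 0.1 (limma adjusted p = 8.36e-06 and 1.39e-05).

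The 3 members called lower in A549 were the ectodysplasin receptor EDA2R, SPATA18, a mitochondrial quality control gene, and POLH, the translesion DNA polymerase. EDA2R read 7.82, 7.68, 7.89 and 7.70 at 6 h and 7.60, 7.38, 7.36 and 7.29 at 24 h (difference -0.36), SPATA18 6.46, 6.60, 6.70 and 6.52 and then 6.08, 6.38, 6.12 and 6.38 (-0.33) and POLH 7.42, 7.27, 7.45 and 7.08 and then 7.16, 6.86, 6.95 and 6.99 (-0.32). EDA2R and SPATA18 did not overlap and POLH did. SPATA18 is 1 of the 3 members below the median level of all genes, and its other probe set differed by 0.40 in the opposite direction. The remaining calls were CCNG1 (0.59), PPM1D (0.55), TP53INP1 (0.44), ZMAT3 (0.44), TNFRSF10B (0.43), GADD45A (0.23), TP53I3 (0.23) and TRIAP1 (0.20). TNFRSF10B differed by -0.02 with its probe set of highest SD. Of the 4 other probe sets of PERP 1 shared its sign for time in A549, and they ran from -0.10 to 0.80. The other probe sets of TP53INP1 had the opposite sign there, at -0.15 and -0.13.

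With quantile normalization over all arrays the A549 split was 10 higher and 7 lower, beside 16.6% and 22.1% of all genes. TP53I3 and TRIAP1 changed sign there, to -0.15 and -0.097, and neither passed. Of the 16 calls 12 passed under all of median centring, both quantile normalizations and the removal of the 4 arrays, and GADD45A, POLH, TP53I3 and TRIAP1 did not. None of the 4 removed arrays is an A549 vehicle array. That removal therefore left these differences unchanged and altered only the estimate of the spread. In the inhibitor arrays of A549 10 members were called with time against 18.7% of all genes, 8 of them also called in vehicle in the same direction (50% of the vehicle calls and 80% of the inhibitor calls). How many of all genes were called in both sets was not counted here either. When the 6 h group was held to inhibitor arrays 3 and 4, whose intensity matches the 24 h arrays, 4 members were called against 7.52% of all genes, and CCNG2 (0.42 ± 0.11), PLK2 (0.33 ± 0.094) and POLH (-0.50 ± 0.15) were shared with vehicle (limma adjusted p = 0.0138, 0.0268 and 0.0359). DDB2 was the other, at -0.26.

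**Figure D4:**
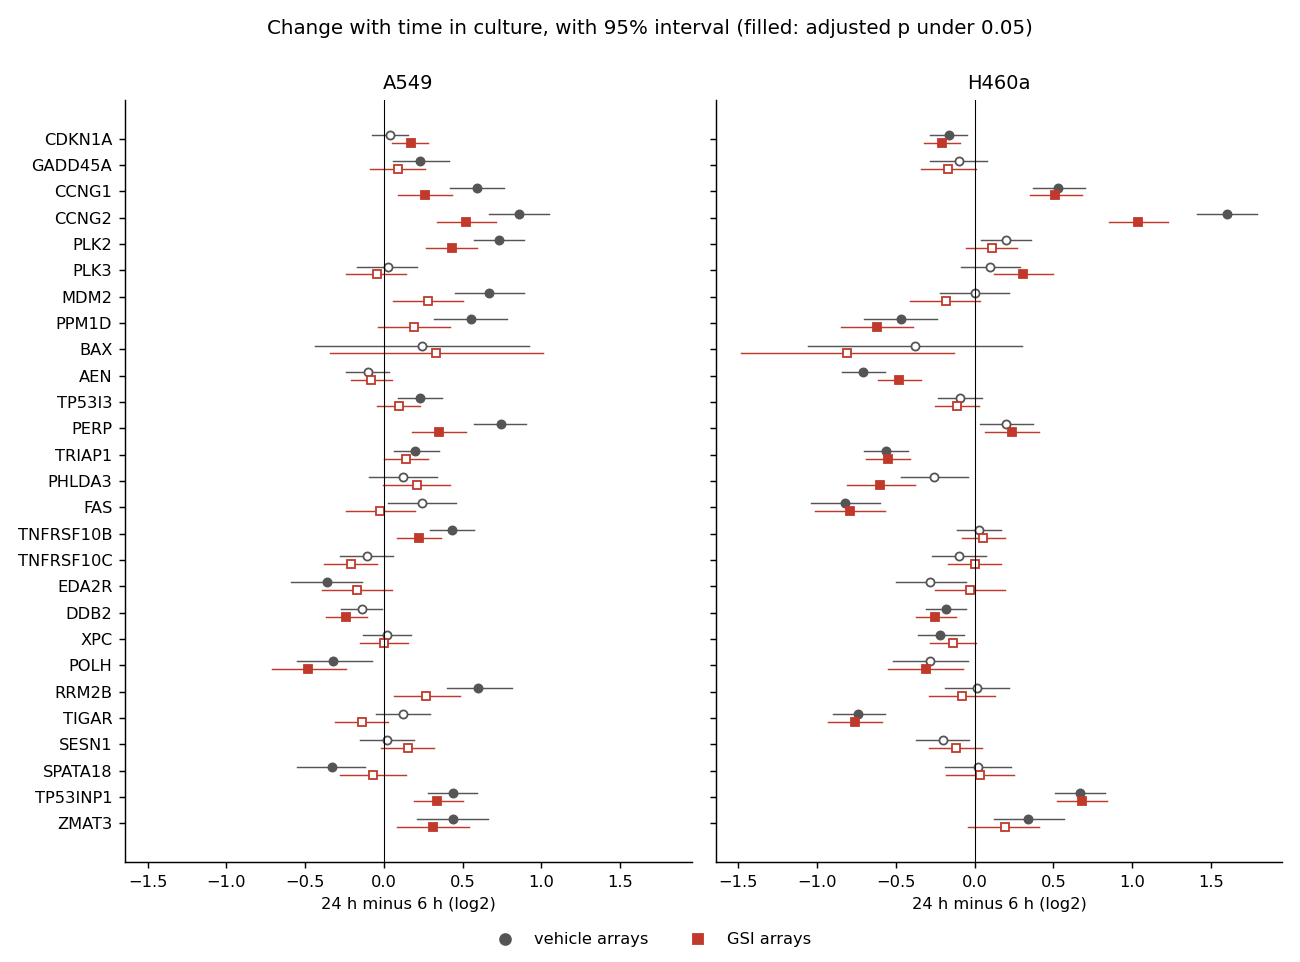
Change of the 27 members from 6 to 24 h in A549 (left) and H460a (right), as log2 differences with 95% intervals, in vehicle arrays (grey circles) and GSI arrays (red squares); filled symbols passed the test. CCNG2 and TP53INP1 lie right of 0 in every set of arrays, and FAS, TIGAR, AEN and TRIAP1 lie left of 0 in H460a in both sets.

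The change with time in vehicle was set against that of the other line in an interaction test. It differed for 15 members, 14 with the higher change in A549 and 1, CCNG2, with the higher change in H460a, against 35.5% of all genes (24.4% and 11.1%). The difference of the changes was 1.06 ± 0.15 for FAS, 1.02 ± 0.16 for PPM1D, 0.85 ± 0.12 for TIGAR, 0.77 ± 0.098 for TRIAP1 and 0.67 ± 0.15 for MDM2. FAS in A549 vehicle read 7.98, 7.86, 7.86 and 8.01 at 6 h and 8.05, 8.17, 8.28 and 8.20 at 24 h, and its difference of 0.24 did not pass, whereas in H460a it was -0.82. PPM1D in A549 read 8.45, 8.40, 8.23 and 8.59 and then 8.91, 8.82, 9.11 and 9.01, so it rose there by 0.55 and fell in H460a by 0.47. TIGAR in A549 read 9.68, 9.54, 9.33 and 9.61 and then 9.62, 9.57, 9.68 and 9.77, with overlap. TRIAP1 read 10.68, 10.82, 10.68 and 10.73 and then 10.93, 10.90, 10.91 and 10.98, a rise by 0.20 beside the fall in H460a. CCNG2 rose in both lines, by 0.86 and 1.60, with a difference of -0.74 ± 0.13 (limma adjusted p = 3.58e-05). The 9 calls of AEN, CCNG2, FAS, MDM2, PLK2, PPM1D, RRM2B, TIGAR and TRIAP1 passed under all 4 of those settings. With its probe set of highest SD the MDM2 difference of the changes was 0.04 and its A549 time change 0.12, and neither passed. The only other probe set of PPM1D gave -0.071 for the difference of the changes and -0.14 for the A549 time change. With quantile normalization over all arrays the split was 8 higher and 4 lower, beside 14.2% and 16.8% of all genes. CDKN1A and TP53I3 changed sign there, from 0.20 to -0.13 and from 0.32 to -0.07. The intensity of the A549 vehicle arrays of 6 h enters this comparison too.

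The further lists were also read for time, where 15.1% of all genes were called higher and 15.3% lower in H460a and 29.2% and 15% in A549. Of the 25 genes lowered through p21 and DREAM, 20 fell and 0 rose in H460a vehicle (list median -0.61, all genes 0.0062). CDKN1A itself fell by 0.16 there, a call lost under both quantile normalizations, and a link between it and the list was not tested. In A549 vehicle 6 of the 25 rose and 9 fell. Of the 49 other p53 targets 8 rose and 17 fell in H460a and 21 rose and 6 fell in A549, and of the 26 regulators 3 rose and 7 fell in H460a and 13 rose and 3 fell in A549.

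Between the lines in vehicle, averaged over both times, 22 of the 27 members differed, 10 higher in A549 and 12 higher in H460a, against 56.7% of all genes (28.8% and 27.9%). The members called were 81.5% of those measured. TP53I3, an oxidoreductase linked to cell death, was higher in A549 by 1.91 ± 0.048, a 3.75-fold difference, and TP53INP1 by 1.57 ± 0.055. TP53I3 read 11.40, 11.58, 11.53 and 11.59 in A549 and 9.86, 9.66, 9.73 and 9.86 in H460a at 6 h, and 11.71, 11.82, 11.79 and 11.70 against 9.62, 9.65, 9.87 and 9.61 at 24 h. TP53INP1 read 8.37, 8.47, 8.29 and 8.45 in A549 at 6 h beside the H460a values above, and the lines did not overlap for either gene at either time. The other probe sets of TP53INP1, at mean levels of 6.64 and 4.5, gave line differences of 0.16 and 0.10, and time differences in H460a of -0.021 and 0.034. CCNG2 was higher in A549 by 0.81 ± 0.065, DDB2, a sensor of ultraviolet damage, by 0.50 ± 0.044 and BAX by 0.56 ± 0.24 (limma adjusted p = 4.76e-13, 5.56e-12 and 0.0409). DDB2 read 9.61, 9.81, 9.76 and 9.81 in A549 and 9.19, 9.15, 9.33 and 9.20 in H460a at 24 h, without overlap. BAX read 9.17, 9.60, 9.18 and 8.83 against 9.22, 9.46, 8.10 and 8.99 at 6 h and 8.97, 9.09, 10.20 and 9.48 against 8.33, 8.56, 9.11 and 8.26 at 24 h, with overlap at both times, and its call did not hold under all settings.

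CCNG1, GADD45A, MDM2, POLH and SESN1 were higher in H460a. CCNG1 read 12.03, 12.03, 12.03 and 12.05 in A549 and 13.16, 13.16, 13.18 and 13.28 in H460a at 24 h, with no overlap (average difference -1.18 ± 0.058, limma adjusted p = 1.40e-18). GADD45A, a stress protein of growth arrest, read 9.00, 9.05, 9.17 and 9.11 against 9.86, 9.86, 9.90 and 10 at 24 h (-0.99 ± 0.061). MDM2 lay at 8.85 ± 0.17 (SD, n = 4) in A549 and 9.90 ± 0.12 in H460a at 6 h and at 9.52 ± 0.12 and 9.90 ± 0.12 at 24 h (-0.71 ± 0.077), with no overlap at either time. POLH differed by -0.65 ± 0.083 and SESN1, a sestrin that restrains mTORC1, by -0.51 ± 0.058. POLH read 7.16, 6.86, 6.95 and 6.99 against 7.81, 7.80, 7.24 and 7.76 and SESN1 7.49, 7.55, 7.58 and 7.41 against 7.99, 7.80, 8.05 and 7.78 at 24 h, again without overlap.

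The other calls between lines were smaller. RRM2B (0.43), XPC (0.25), PHLDA3 (0.22), PLK3 (0.20) and CDKN1A (0.20) were higher in A549, and FAS (-0.51), AEN (-0.38), ZMAT3 (-0.32), PPM1D (-0.28), SPATA18 (-0.21), PLK2 (-0.15) and TRIAP1 (-0.14) were lower. The order of the lines depended on the time for 4 of these: at 24 h alone FAS differed by 0.02, PLK2 by 0.12, PPM1D by 0.23 and TRIAP1 by 0.25, all with the opposite sign. Both other probe sets of PLK3 gave the opposite sign as well, at -0.20 and -0.13. Under median centring, both quantile normalizations and the removal of the 4 arrays 19 of the 22 calls passed, and BAX, PLK2 and TRIAP1 did not. PERP, TNFRSF10B, TNFRSF10C, EDA2R and TIGAR did not pass between lines, with intervals of -0.14 to 0.096 for PERP and -0.051 to 0.19 for TIGAR.

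**Figure D5:**
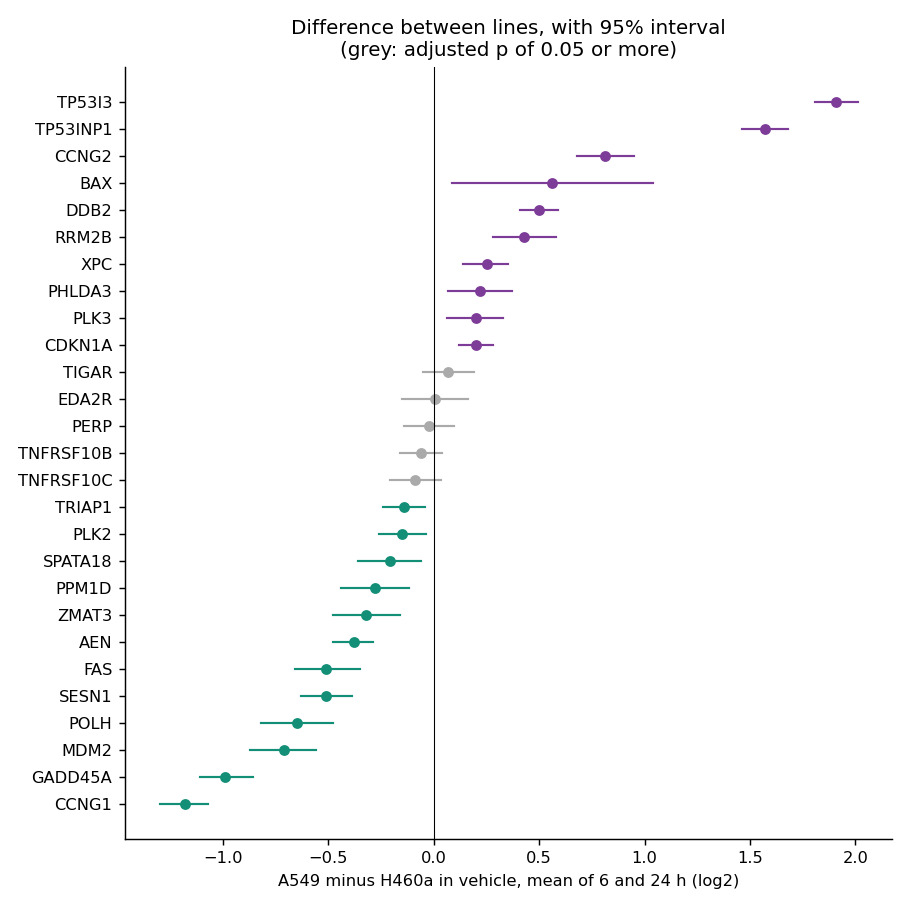
A549 minus H460a in vehicle, averaged over 6 and 24 h (horizontal axis, log2), for the 27 members in order of size, with 95% intervals; purple members were higher in A549, green ones higher in H460a and grey ones did not pass. TP53I3 at 1.91 and TP53INP1 at 1.57 lie farthest right and CCNG1 at -1.18 farthest left.

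The members differed in how closely their arrays repeated. The median SD within a group ran from 0.049 for PERP and 0.055 for CDKN1A to 0.15 for ZMAT3, POLH and EDA2R, and was 0.4 for BAX. Over all 32 arrays CDKN1A spanned 0.47, the smallest range of the 27, whereas TP53INP1 spanned 2.49 and CCNG2 2.20. Of the members 14 had more than 1 probe set. In A549 at 6 h 4 of the 6 inhibitor calls had other probe sets, and in 1 of these 4 they all shared the sign of the chosen one, with exceptions for CCNG2, MDM2 and PERP. With time the count was 1 of 9 in A549, that of ZMAT3, and 3 of 5 in H460a, where CCNG2 and TP53INP1 were the exceptions. Between lines it was 8 of 11, with exceptions for CCNG2, MDM2 and PLK3.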

How the data were processed

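RNA of 32 samples was hybridised to Affymetrix arrays of 54675 probe sets. The deposited values are linear intensities. The authors used RMA, as the submitters' processing notes have it, and its version and any further scaling are not given here. They were taken to log2 with no further scaling and no filter on low values. Of the probe sets 41091 carry 1 gene symbol, 1801 several and 11721 none. Identifiers of 41037 of the first were matched to RefSeq names.

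All 8 group means were fitted with limma 3.58.1 (lmFit, eBayes; R 4.3.3) over 19775 genes and 13 comparisons, with Benjamini-Hochberg adjustment over all genes in each and a threshold of 0.05. The fit was tested on simulated data. Total degrees of freedom were 31.89 and the median SE of an inhibitor difference was 0.087. The number of arrays, 4 per group, limits the precision. Array values are printed for members called in an inhibitor comparison and for up to 5 per direction elsewhere, and from the further lists up to 4 per direction, with MDM4, CDKN2A and HES1 in any case. The members, lists and tests were chosen with earlier results of these data known, and the motifs after values were seen. Promoters come from RefSeq (GRCh38.p14). Differences are log2 ± SE and intervals are 95%.

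Alternatives were quantile normalization (within each line, or over all arrays), median centring, other sets of arrays, another probe set rule, a level filter, other variance moderation, a replicate block, a minimum difference of 0.58 and leaving out each array. Replicates of a group correlated at 0.991 to 0.998, and no arrays held identical values. The main fit did not pair samples by replicate number.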

Additional observations from a re-analysis of the deposited data

Results flagged for a closer look

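In 16 of 216 groups of 4 arrays 1 array lay far from the other 3, and chance gives about 1 in 20. Of the 16, 5 fell on arrays that stand apart. On H460a vehicle 6 h array 3 these were GADD45A (10.35 against 9.86 to 9.93 on the other arrays), PLK2 (10.55 against 10.18 to 10.22) and SESN1 (8.40 against 8.01 to 8.03). On H460a GSI 24 h array 3 they were PLK3 (8.28 against 7.85 to 7.89) and XPC (9.54 against 9.33 to 9.36). H460a vehicle 24 h array 3 was high for TP53I3 (9.87 against 9.61 to 9.65), TRIAP1 (10.90 against 10.59 to 10.63) and PHLDA3 (9.29 against 8.98 to 9.02) and low for POLH (7.24 against 7.76 to 7.81). The other single arrays were CCNG1 on H460a vehicle 24 h array 4 (13.28 against 13.16 to 13.18), AEN on H460a GSI 6 h array 2 (9.80 against 9.71 to 9.72) and DDB2 on H460a GSI 24 h array 4 (9.09 against 9.22 to 9.23). In A549 they were FAS on GSI 24 h array 1 (8.02 against 8.16 to 8.17), RRM2B on GSI 24 h array 3 (9.88 against 9.65 to 9.67), TIGAR on GSI 24 h array 4 (9.50 against 9.58 on each of the others) and TP53INP1 on vehicle 24 h array 3 (9.05 against 8.73 to 8.78).

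The change from 6 to 24 h in vehicle differed between the lines for 15 members in limma's interaction test, against 35.5% of all genes (24.4% higher and 11.1% lower). Of the 15, 9 passed under median centring, both quantile normalizations and the removal of the 4 arrays. CDKN1A, GADD45A, PERP, PHLDA3, TNFRSF10B and TP53I3 did not. As A549 minus H460a the differences of the changes were 1.06 for FAS, 1.02 for PPM1D, 0.85 for TIGAR, 0.77 for TRIAP1, 0.67 for MDM2, 0.60 for AEN, 0.59 for RRM2B, 0.53 for PERP and 0.53 for PLK2. They were 0.40 for TNFRSF10B, 0.38 for PHLDA3, 0.33 for GADD45A, 0.32 for TP53I3, 0.20 for CDKN1A and -0.74 for CCNG2. The A549 vehicle arrays of 6 h had low mean intensities, and the part of that in these differences was not tested.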

How the results depend on the processing

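Counts are of the 27 members. Shares of all genes are given above for some of these settings. For the others, among them the minimum difference, they were not counted, so those member counts cannot be read against all genes. The 6 calls for the inhibitor in A549 at 6 h became 1 with quantile normalization over all arrays, 1 with quantile normalization within each line, and 0 with only the arrays of the comparison, without the 4 arrays that stand apart or with a minimum difference of 0.58. Its effect at 24 h minus 6 h in A549, with 0 calls, gave 1 with each quantile normalization, 2 among genes over the median level, 1 with a variance trend and robust moderation and 4 with array weights. The 1 call in H460a at 6 h became 0 with only the arrays of the comparison, in H460a alone, with the mean of all probe sets or with the minimum difference. The 1 call in the average became 3 without the 4 arrays, 2 over the median level, 2 with trend and robust moderation, 4 with array weights and 0 with the minimum difference. With that minimum the counts were 6 for time in A549, 5 for time in H460a, 8 for their difference and 7 between lines. The GSI arrays, chosen after seeing the data, gave 10 calls for time in A549 in place of 16, 4 with its 6 h arrays 3 and 4 only, and 14 in place of 12 in H460a. Same-numbered vehicle and inhibitor arrays correlated at -0.35 to 0.32 about their group means (5 of 16 over 0.1). Arrays of different number were not compared, so a pairing by number cannot be judged from these values. The replicate block lies within a line, so under it the comparison between lines rests on single replicates as baselines. It does not measure the line difference there, and its count is not given. Without single replicates the counts ran from 0 to 8 for A549 at 6 h, 0 to 1 for H460a at 6 h, 0 to 0 for both at 24 h, 1 to 3 for the average, 0 to 2 and 0 to 0 for the differences between lines at 6 and 24 h, and 0 to 3 and 0 to 0 for those between times in A549 and H460a. They ran from 14 to 17 for time in A549, 10 to 14 for time in H460a, 12 to 15 for their difference and 20 to 22 between lines.

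Signs reversed as follows, and the cause was not tested. With quantile normalization over all arrays the time change in A549 became -0.15 for TP53I3 and -0.10 for TRIAP1 (-0.14 and -0.09 within each line), its difference between lines -0.13 for CDKN1A and -0.07 for TP53I3 (-0.12 and -0.07 within each line), and the difference between lines 0.02 for TRIAP1. With the probe set of highest SD, MDM2 in A549 at 6 h became -0.10, the time change in A549 -0.02 for TNFRSF10B and 0.40 for SPATA18, its difference between lines -0.05 for TNFRSF10B, and the line difference of PLK3 -0.20. With the mean of all probe sets SPATA18 became 0.04 and PLK3 -0.04. SPATA18 was 0.06 in the GSI arrays with 6 h arrays 3 and 4 only. At 24 h alone the line difference became 0.12 for PLK2, 0.23 for PPM1D, 0.25 for TRIAP1 and 0.02 for FAS. No count of 0 in either line at 24 h changed under any setting. A probe set near the array medians may hold little specific signal, which limits SPATA18, TNFRSF10C, POLH and, in H460a at 6 h, TP53INP1 (mean 6.71).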
